A study of Rattus norvegicus with 6 samples.

Results

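Prostaglandin synthesis and receptor genes were examined in RNA-seq libraries of cultured rat amniotic fluid cells. The set was defined by name: Ptgs1, Ptgs2, Ptges, Ptgis and Hpgd for the enzymes, and Ptger1, Ptger2, Ptger4, Ptgfr and Ptgir for the receptors. All 10 were found among the 22085 genes of the deposited table. Amniotic fluid had been taken on embryonic day 18.5 from control pregnant rats (3 libraries) and from rats with a preeclampsia model (3 libraries), and the cells, labelled mesenchymal stem cells, were cultured in DMEM/F12 with fetal bovine serum and collected at passage 4. The labels give the same culture for both groups. How the model was induced, the rats' strain and age, and how many animals or fetuses gave each library are not given in the sources used here, so every p-value measures the spread between these libraries, which may be technical.

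Prostaglandins are lipid mediators made from arachidonic acid. A cyclooxygenase, encoded by Ptgs1 or Ptgs2, converts it to prostaglandin H2, which a terminal synthase then turns into prostaglandin E2 (Ptges) or prostacyclin (Ptgis), and 15-hydroxyprostaglandin dehydrogenase (Hpgd) inactivates the E and F prostaglandins. Ptgs1 is the steadily expressed form in most tissues, whereas Ptgs2 is an immediate early gene induced by cytokines and growth factors. In the fetal membranes prostaglandin E2 and prostaglandin F2-alpha act in cervical ripening and labour, and prostacyclin relaxes blood vessels.

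The sequences just upstream of the 2 cyclooxygenase genes and of Ptges are shown because Ptgs2 and Ptges are known as inducible genes and Ptgs1 as a steadily expressed one. Each is the stretch of 250 bases that ends at the base before the annotated start, 5′ to 3′ on the gene's strand, from the RefSeq promoter table of build GRCr8, which held 9 of the 10 genes (all but Ptgis). The windows are chr13:64713813-64714062 on the plus strand for Ptgs2, chr3:39981169-39981418 on the plus strand for Ptgs1 and chr3:34586988-34587237 on the minus strand for Ptges. Capitals mark matches, on either strand, to 7 motifs: the E-box CACGTG, the CRE half-site TGACG, the C/EBP site TTGCNNAA, the TATA box TATAAA, the GC box GGGCGG, the EGR1-type site GCGGGGGCG and the NF-kB consensus.
Ptgs2: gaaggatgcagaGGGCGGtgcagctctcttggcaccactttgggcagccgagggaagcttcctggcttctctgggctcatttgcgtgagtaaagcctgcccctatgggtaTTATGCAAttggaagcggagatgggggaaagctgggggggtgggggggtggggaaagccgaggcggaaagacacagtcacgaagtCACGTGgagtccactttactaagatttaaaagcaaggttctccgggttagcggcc
Ptgs1: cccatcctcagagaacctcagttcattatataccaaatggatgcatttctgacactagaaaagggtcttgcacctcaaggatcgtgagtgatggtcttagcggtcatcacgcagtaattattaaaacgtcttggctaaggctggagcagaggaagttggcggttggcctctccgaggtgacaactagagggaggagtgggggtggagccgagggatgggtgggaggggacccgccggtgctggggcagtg
Ptges: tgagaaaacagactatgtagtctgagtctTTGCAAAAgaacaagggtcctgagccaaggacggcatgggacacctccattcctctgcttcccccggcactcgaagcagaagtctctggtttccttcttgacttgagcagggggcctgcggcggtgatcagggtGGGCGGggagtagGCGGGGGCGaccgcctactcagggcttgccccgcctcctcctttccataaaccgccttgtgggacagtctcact

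The Ptgs2 window held a GC box at -238 to -233, a C/EBP site at -140 to -133 and an E-box at -55 to -50, counted back from the start with -1 as the last base before it. The Ptges window held a C/EBP site at -221 to -214, a GC box at -87 to -82 and an EGR1-type site at -74 to -66. None of the 7 motifs was found in these letters of the Ptgs1 window, nor in the windows of Ptger2 and Ptger4, which are not shown. Of the other windows not shown, that of Ptgfr held C/EBP sites and those of Ptger1 and Ptgir a GC box. The Hpgd window held a GC box and a CRE half-site. Among 27457 upstream windows of the same length, 5.8% held the E-box, 9.2% the C/EBP site, 32.4% the GC box, 2.5% the EGR1-type site, 19.0% the CRE half-site, 13.1% the TATA box and 6.4% the NF-kB consensus. The motifs were chosen with the sequences in view, and a match is a description of the letters only.

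Levels are given as CPM (counts scaled to library size), the deposited counts over library sizes adjusted by edgeR's trimmed mean method (TMM). Library totals ran from 48402185 to 59193961 counts. CPM is not scaled by gene length, and the deposited FPKM (fragments scaled to gene length and library size) could not be used for that either. The length implied by a gene's count and FPKM exceeded the gene's whole genomic span in 617 of 10502 genes with FPKM over 1 in all libraries, and in 170 of the 269 of them that span under 1500 bases. For Ptgir the implied length was 6604 bases against a span of 2384, and for Ptgis it was 493 bases. The 10 genes are therefore not ranked by level. For 2 pairs of enzymes a share or ratio is followed across libraries, and which gene of a pair is the larger is not read from it.

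The libraries were not alike within groups. The 9 mesenchymal markers summed to between 18123 and 34201 CPM. Col1a1 alone had 9722 to 23528 CPM, and Thy1 had 1004 CPM or more in every library. Eng ran from 11.2 to 127 CPM and Nt5e from 22.2 to 406 CPM. Pdgfra stood at 245, 227 and 265 CPM in controls and at 518, 581 and 989 CPM in preeclampsia libraries (adjusted p = 0.373 in edgeR). It was the 1 gene of this list that DESeq2 called, higher. The 11 macrophage markers summed to 261, 202 and 36.2 CPM in the controls, in order of library number, and to 42.3, 940 and 490 CPM in the preeclampsia group, with C1qa at 0 in control library 3. The epithelial list (6 of its 7 genes in the table) summed to 7.45, 75.7 and 17.4 CPM in the controls and to between 0.858 and 2.71 CPM in the preeclampsia libraries, and its defining gene Epcam was at 0 in all but preeclampsia library 2. The sums rested on keratins: Krt8 and Krt18 gave 51.0 and 23.7 of the 75.7 CPM in control library 2, and Krt19 gave 4.88 of the 7.45 CPM in control library 1. Cdh1 was at 0.251 CPM or less in every library. Cldn4 went the other way, with counts of 0, 0 and 8 in controls and 12, 4 and 27 in preeclampsia libraries. DESeq2, which called 2.22% of all genes, called both epithelial genes that passed the filter, Krt8 and Krt18, lower in the preeclampsia group. Neither was called by edgeR (smallest adjusted p = 0.441), and their part in the results here was not tested. All marker genes named in this paragraph were named after their values were seen. The 6 endothelial genes summed to between 5.32 and 16.5 CPM. The 5 smooth muscle genes summed to 16489, 4301 and 8700 CPM in the controls and to 5687, 4590 and 3872 CPM in the preeclampsia group. DESeq2 called 1 of the 5, lower, and edgeR called none (smallest adjusted p = 0.463). Of the 4 mesothelial genes Msln alone was higher, at 7.98, 14.5 and 12.3 CPM in controls and 120, 89.2 and 154 CPM in preeclampsia libraries (adjusted p = 0.228 in edgeR; called by DESeq2), and the other 3 had fitted log2 fold changes from -1.31 to -0.19. On the first principal component (33.3% of the variance) preeclampsia libraries 2 and 3 lay apart from the other 4.

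The comparison asked whether genes that make, inactivate and sense prostaglandins had other levels in the preeclampsia group than in the controls. All 10 genes passed the filter on low counts. None was called by edgeR's quasi-likelihood test at a Benjamini-Hochberg adjusted p under 0.05, where 0% of the 15776 genes tested were called, and none by DESeq2, where 2.22% were. At an unadjusted p under 0.05 only Ptgs2 passed, 1 gene of 10 against 9.19% of all genes. In none of the 10 did the CPM of the groups separate, against 15.6% of all genes (7.25% with the preeclampsia group higher and 8.30% with it lower). The fitted log2 fold change, preeclampsia over control, was above 0 for 6 genes and below 0 for 4, with a median of 0.08, beside 0.01 over all genes.

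**Figure D1:**
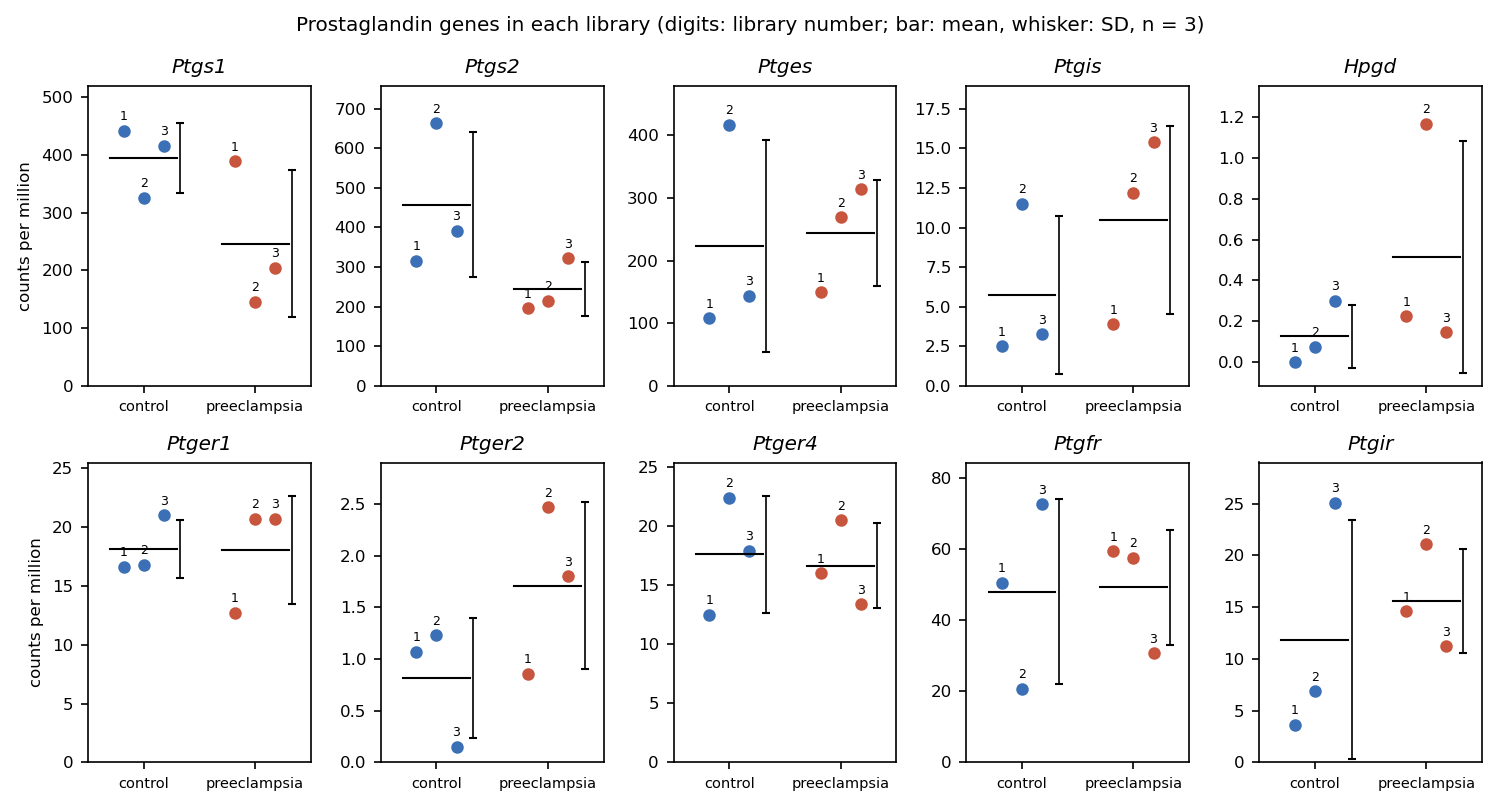
CPM (y axis, linear; a separate scale per gene) of the 10 genes in the 3 control (blue) and 3 preeclampsia (red) libraries; digits are library numbers, bars means and whiskers 1 SD. The groups overlap in all 10 panels, most narrowly for Ptgs2, where preeclampsia library 3 at 322 lies just above control library 1 at 316.

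The 2 cyclooxygenase genes both had lower means in the preeclampsia group, with preeclampsia library 2 below every control library in both and a different second low library in each. Ptgs2, the inducible cyclooxygenase (chromosome 13, 62164080 to 62169770 on the plus strand in the table's coordinates), stood at 316, 664 and 392 CPM in control libraries 1 to 3 and at 196, 215 and 322 CPM in preeclampsia libraries 1 to 3. Preeclampsia libraries 1 and 2 were below every control library, and library 3 was within the control range. The means were 457 ± 183 and 245 ± 68.1 CPM (SD, n = 3 each), a log2 fold change of -0.90 (SE 0.33), with an unadjusted p of 0.0324 and an adjusted p of 0.486 in edgeR. The highest control library carried much of this difference, since without control library 2 the log2 fold change was -0.53 (adjusted p = 0.772 in edgeR).

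Ptgs1, known as the steadily expressed cyclooxygenase of most tissues, lies on chromosome 3 (19584015 to 19605589, plus strand). It stood at 442, 326 and 416 CPM in the controls and at 389, 146 and 205 CPM in preeclampsia libraries 1 to 3. Over these 6 libraries it was no steadier than Ptgs2, both having an SD of 0.64 on the log2 CPM scale. Preeclampsia library 1 was among the controls, while libraries 2 and 3 were below all of the other 4. The means were 395 ± 60.8 and 247 ± 127 CPM, and the log2 fold change was -0.68 (SE 0.36, adjusted p = 0.650 in edgeR). Without preeclampsia library 1 it was -1.17 (adjusted p = 0.247), and without preeclampsia library 2 it was -0.41 (adjusted p = 0.884). The 2 libraries low in Ptgs1 were those with the most macrophage marker counts, at 940 and 490 summed CPM. Among the other libraries the 2 values did not run opposite. Control library 1, next with 261 summed CPM, had the highest Ptgs1 at 442 CPM, and control library 3, with 36.2, had 416 CPM. The part of macrophage content in the Ptgs1 level was not tested. In bulk RNA, fewer cells of a type and less RNA per cell cannot be told apart.

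The balance of the 2 cyclooxygenases showed no common direction. The FPKM of Ptgs2 made up 54.0%, 77.0% and 60.7% of the sum of both in the controls, by library number, and 45.3%, 70.7% and 72.1% in the preeclampsia group. On CPM the same share was 41.7%, 67.1% and 48.5% and then 33.5%, 59.5% and 61.2%, so its size depends on the scale. The group means on FPKM were 63.9 ± 11.8% and 62.7 ± 15.1%, a difference of -1.19 percentage points with p = 1.00 in an exact two-sided permutation test (n = 3 each), whose smallest possible p is 0.1. As a log2 ratio of counts, which does not depend on gene length, the difference was -0.08 (exact p = 1.00). The range within each group exceeded the difference between the groups on both scales. The difference in share changed sign, to 5.35 and 7.51 percentage points, without control library 2 and without preeclampsia library 1.

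Ptges and Ptgis, the synthases of prostaglandin E2 and of prostacyclin, were high and low in the same libraries. Ptges (microsomal prostaglandin E synthase, chromosome 3, 14177892 to 14189236, minus strand) stood at 108, 417 and 144 CPM in controls 1 to 3 and at 150, 269 and 314 CPM in preeclampsia libraries 1 to 3. Ptgis (prostacyclin synthase, chromosome 3, 155928564 to 155964228, minus strand) stood at 2.49, 11.5 and 3.26 CPM in the controls and at 3.90, 12.2 and 15.4 CPM in the preeclampsia libraries. In both genes control libraries 1 and 3 and preeclampsia library 1 formed the low end, and control library 2 and preeclampsia libraries 2 and 3 the high end. The SD of their log2 ratio over the 6 libraries was 0.49, the second smallest of the 45 pairs of the 10 genes (median 1.21). The smallest, 0.41, belonged to Ptger1 and Ptger4, whose own SDs were 0.29 and 0.33, whereas Ptges and Ptgis varied with SDs of 0.76 and 1.13 on the log2 CPM scale. These 6 libraries share their processing, and the ratio is given as a description.

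The group means of Ptges were 223 ± 169 and 244 ± 84.5 CPM, with a log2 fold change of 0.13 (SE 0.55, adjusted p = 0.962 in edgeR). Those of Ptgis were 5.76 ± 5.01 and 10.5 ± 5.95 CPM, with a log2 fold change of 0.87 (SE 0.74, adjusted p = 0.794). The spread within groups was larger than either difference. Single libraries moved both values, and changed the sign for Ptges only. Without control library 2 they were 0.96 for Ptges and 1.87 for Ptgis (adjusted p = 0.714 and 0.694 in edgeR). Ptges was at -0.20 without control library 1, -0.10 without control library 3, -0.09 without preeclampsia library 3 and 0.06 without preeclampsia library 2, and 0.38 without preeclampsia library 1. Ptgis was at 0.48 without preeclampsia library 3, 0.51 without control library 1 and 0.58 without control library 3. Ptges made up 93.9%, 92.8% and 94.0% of the summed FPKM of both synthases in the controls and 93.2%, 88.7% and 87.8% in preeclampsia libraries 1 to 3. The difference of the means was -3.70 percentage points (exact two-sided permutation p = 0.200, n = 3 each), and as a log2 ratio of counts it was -0.67 (exact p = 0.200). Preeclampsia libraries 2 and 3 lay below all controls, and preeclampsia library 1 within them. The implied length of Ptgis makes the size of this share uncertain, but not the difference in log2 ratio.

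**Figure D2:**
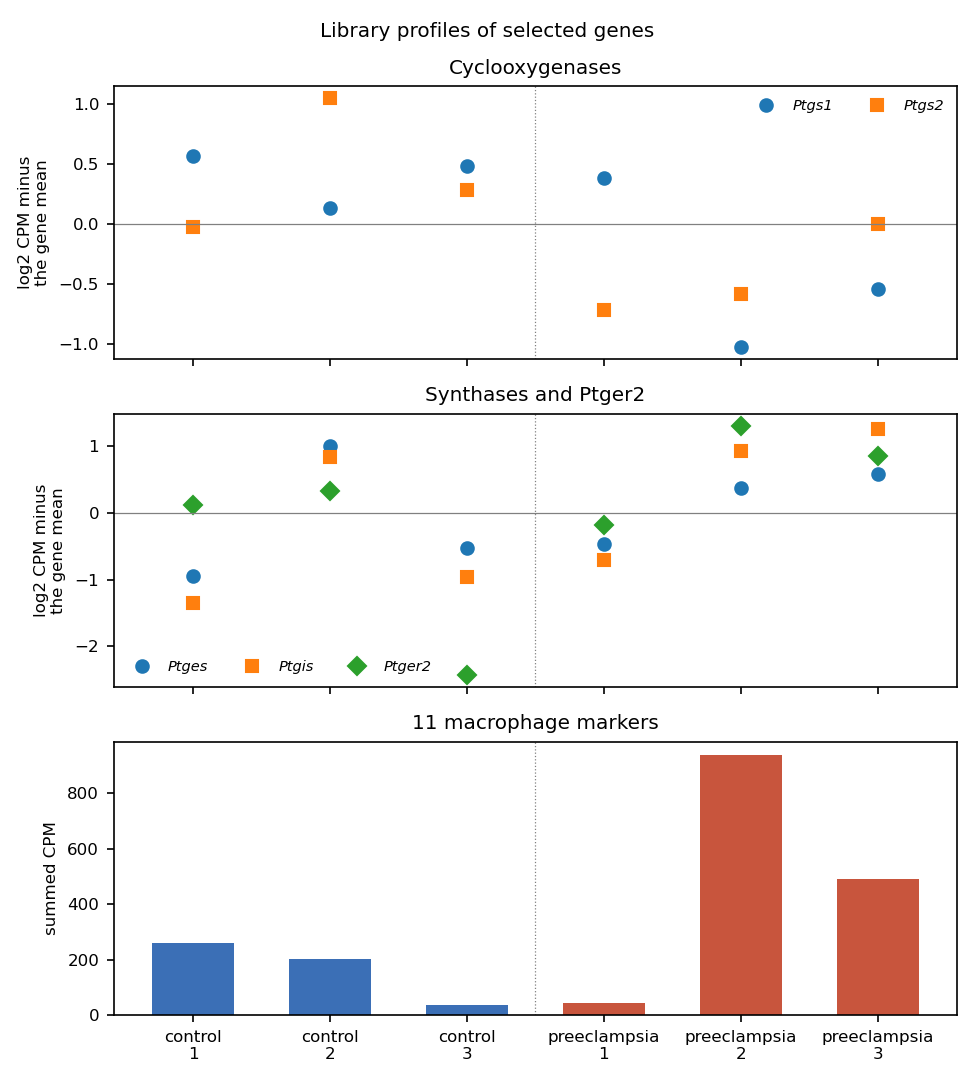
Log2 CPM minus the gene's mean over the 6 libraries for Ptgs1 and Ptgs2 (top) and for Ptges, Ptgis and Ptger2 (middle), and the summed CPM of 11 macrophage markers (bottom, bars from 0), by library. Ptges and Ptgis are both above their means in control library 2 and preeclampsia libraries 2 and 3, and the macrophage sum is highest in preeclampsia library 2 at 940 CPM.

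Hpgd, the dehydrogenase that inactivates prostaglandins (chromosome 16, 33986265 to 34024228, minus strand), was at the limit of detection. Its counts were 0, 4 and 16 in the controls, by library number, and 12, 67 and 7 in the preeclampsia group. The 0 in control library 1, whose TMM-adjusted size was 47767989, allows up to 0.0628 CPM (3 counts), counting error only. Preeclampsia library 2 held more counts than the other 5 libraries combined, at 1.17 CPM. The fitted log2 fold change of 2.01 (SE 1.36, adjusted p = 0.729 in edgeR) was 0.55 without that library and 3.65 without control library 3. Counts this low were often multiples of 4 (35.1% to 38.0% of counts from 1 to 15 per library, against 20% if evenly spread), and what 1 such count stands for is not known.

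Of the prostaglandin E2 receptors, Ptger1 and Ptger4 differed least between libraries. Ptger1, a receptor that signals through calcium (chromosome 19, 24470258 to 24473687, minus strand), stood at 16.6, 16.8 and 21.0 CPM in controls and at 12.7, 20.7 and 20.7 CPM in preeclampsia libraries 1 to 3, a log2 fold change of -0.01 (SE 0.24). Ptger4, which raises cyclic AMP (chromosome 2, 54330563 to 54347451, minus strand), stood at 12.5, 22.4 and 17.9 CPM and at 16.0, 20.5 and 13.4 CPM, a log2 fold change of -0.08 (SE 0.27). The adjusted p was 0.995 and 0.953 in edgeR, and the highest library exceeded the lowest 1.66 fold for Ptger1 and 1.78 fold for Ptger4. Their SDs of 0.29 and 0.33 on the log2 CPM scale were close to the median of all genes, 0.33, while the other 8 genes lay between 0.64 and 1.66.

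Ptger2, the other cyclic AMP-raising E2 receptor of the set (chromosome 15, 18215013 to 18228714, plus strand), varied most among the receptors. It had 51, 65 and 8 counts in the controls and 46, 141 and 86 in preeclampsia libraries 1 to 3, or 1.07, 1.23 and 0.150 CPM and 0.858, 2.47 and 1.80 CPM. Preeclampsia libraries 2 and 3 were above every control, and preeclampsia library 1 was below controls 1 and 2. The log2 fold change was 1.07 (SE 0.80, adjusted p = 0.764 in edgeR), and 0.57 without control library 3. The library with the fewest Ptger2 counts, control 3, also had the lowest summed macrophage markers (36.2 CPM), and the one with the most, preeclampsia 2, the highest (940 CPM). Tbxas1, thromboxane synthase and a gene of macrophages and platelets, stood at 2.43, 3.32 and 0.562 CPM in controls and at 0.299, 4.44 and 2.03 CPM in preeclampsia libraries, and was named after its values were seen. The part of macrophage content in the Ptger2 values was not tested.

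Ptgfr and Ptgir, the receptors for prostaglandin F2-alpha and for prostacyclin, had wide control groups. Ptgfr (chromosome 2, 240731185 to 240766674, minus strand) stood at 50.6, 20.8 and 72.7 CPM in controls and at 59.4, 57.6 and 30.7 CPM in preeclampsia libraries 1 to 3, a log2 fold change of 0.04 (SE 0.48, adjusted p = 0.987 in edgeR). Ptgir (chromosome 1, 77579596 to 77581979, plus strand) stood at 3.64, 6.86 and 25.1 CPM and at 14.6, 21.1 and 11.2 CPM, a log2 fold change of 0.40 (SE 0.70, adjusted p = 0.905). The 3 preeclampsia libraries of Ptgir lay between control libraries 2 and 3. Without control library 3 its log2 fold change was 1.58 (adjusted p = 0.359 in edgeR), and without control library 1 it was -0.03 (adjusted p = 0.998). For both genes the control libraries spanned a wider range than the preeclampsia libraries. Ptgis and Ptgir, the receptor for its product, did not follow each other: control library 2 was high in Ptgis and low in Ptgir. The SD of their log2 ratio was 1.40.

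**Figure D3:**
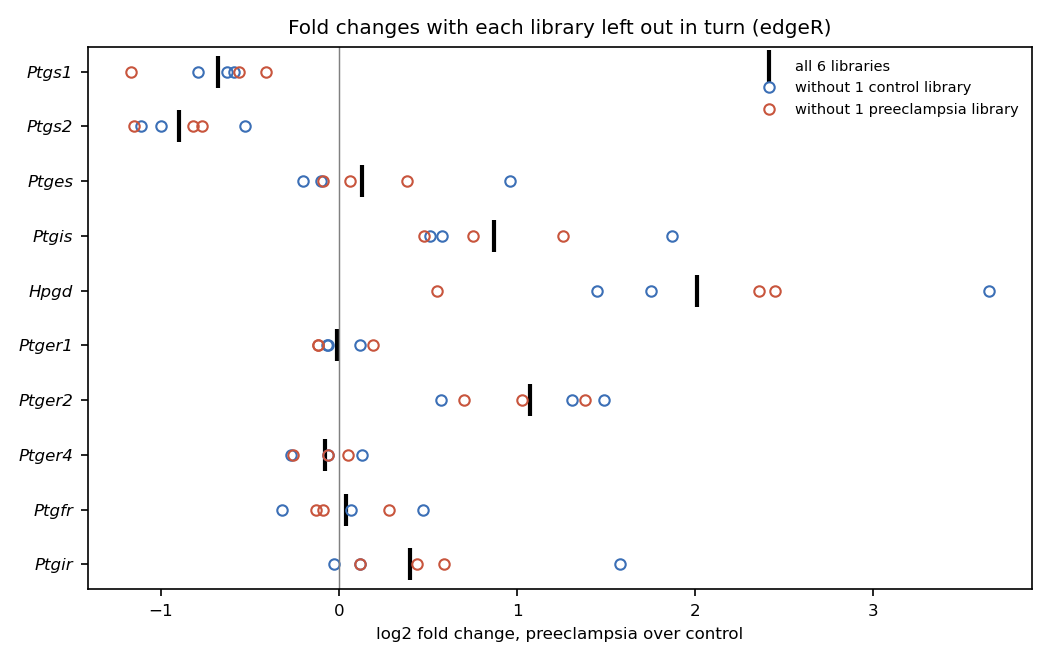
Log2 fold change (x axis, preeclampsia over control, edgeR) of each gene with all 6 libraries (black bar) and with 1 control (blue) or 1 preeclampsia library (red) left out. The values for Ptgs2 stay between -1.15 and -0.53 and those for Ptgs1 between -1.17 and -0.41, while Ptges, Ptger1, Ptger4, Ptgfr and Ptgir cross 0.

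The rest of the prostanoid pathway was taken from a list of 25 genes, of which 22 were in the table and 20 were tested. None was called by edgeR or by DESeq2, the smallest adjusted p in edgeR being 0.473, and the median log2 fold change was -0.06 (9 higher, 11 lower). Groups separated in 2 of the 20, both lower in the preeclampsia group, against 8.30% of all genes separated in that direction. Tbxa2r, the thromboxane receptor, stood at 3.35, 3.37 and 12.7 CPM in controls and at 1.53, 2.34 and 1.51 CPM in preeclampsia libraries (-1.85, SE 0.61, adjusted p = 0.473 in edgeR). Cbr3, a carbonyl reductase, stood at 7.87, 8.26 and 7.58 CPM and at 6.16, 5.04 and 3.10 CPM (-0.73, SE 0.29, adjusted p = 0.523). Both were at an unadjusted p under 0.05, as were 5.06% of all genes in the lower direction.

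The 6 genes of that list with the highest mean FPKM overlapped between the groups. Ptgfrn, a membrane protein known as a negative regulator of the F2-alpha receptor, stood at 858, 886 and 890 CPM in controls and 1094, 978 and 572 CPM in preeclampsia libraries (0.00, SE 0.25). Ptges3, a cochaperone also described as cytosolic prostaglandin E synthase, had a log2 fold change of 0.00 (SE 0.16), and Plaa, a phospholipase A2 activating protein, one of -0.07 (SE 0.12). The prostaglandin reductases Ptgr1 and Ptgr2 had -0.25 (SE 0.28) and 0.20 (SE 0.14), and the phospholipase gene Pla2g6 -0.19 (SE 0.21). For these 6 the fold changes were within 1.5 SE of 0. Pla2g4a, the cytosolic phospholipase that frees arachidonic acid, was at 60.7 ± 8.27 and 46.8 ± 22.2 CPM (-0.38, SE 0.34), and Ptger3, the E2 receptor that lowers cyclic AMP, reached 35.0 CPM in control library 1 and from 5.15 to 11.5 in the other 5. Both were named after their values were seen.

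**Figure D4:**
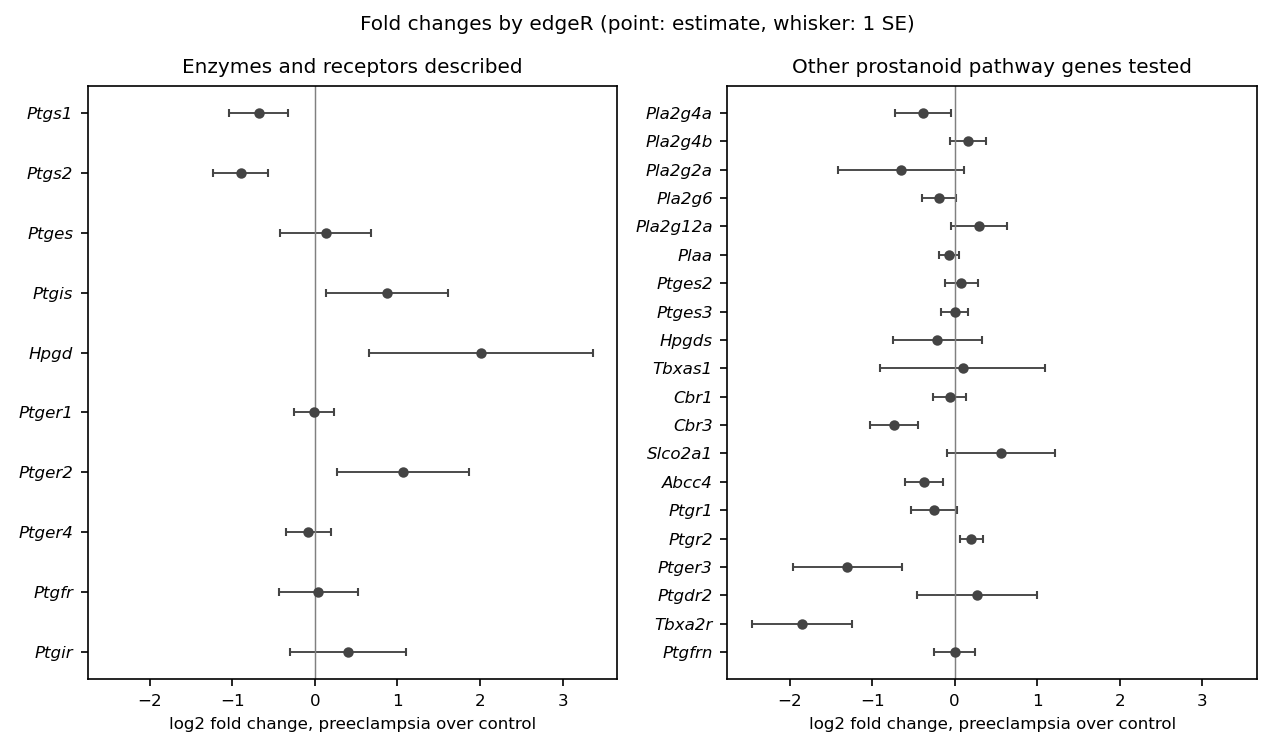
Log2 fold change (x axis, preeclampsia over control, edgeR; whiskers 1 SE) of the 10 genes (left) and of the 20 tested genes of the wider prostanoid list (right). Ptgs1 and Ptgs2 lie below 0 at -0.68 and -0.90, and Tbxa2r is the lowest on the right at -1.85; none passed the adjusted threshold.

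Genes known to induce or restrain Ptgs2 were described from a list of 19, of which 18 were tested. None was called by edgeR or DESeq2, the median log2 fold change was -0.20, and 5 had an unadjusted p under 0.05, 1 higher and 4 lower, against 9.19% of all genes. The groups separated in 5, against 15.6% of all genes, with Tnfrsf1a and Il1rn higher in the preeclampsia group and Egr1, Tsc22d3 and Zfp36 lower. The 2 sets of 5 differ: Il1rn separated at an unadjusted p of 0.0593 in edgeR. Dusp1 had an unadjusted p of 0.0168 in edgeR (-0.78, SE 0.24), with overlapping groups. These genes were named after their values were seen. Egr1, an immediate early transcription factor, stood at 56.6, 50.5 and 73.9 CPM in controls and at 46.9, 21.4 and 12.5 CPM in preeclampsia libraries 1 to 3 (-1.16, SE 0.47, adjusted p = 0.539 in edgeR). Of the genes with the highest mean FPKM, Il1r1, the interleukin-1 receptor, was at 421 ± 88.5 and 581 ± 127 CPM (0.46, SE 0.23), the NF-kB subunit Rela at 70.2 ± 4.25 and 66.2 ± 7.42 (-0.08, SE 0.12), Il1a at 139 ± 120 and 69.6 ± 56.5 (adjusted p = 0.779 in edgeR) and the C/EBP factor Cebpd at 39.5 ± 22.8 and 62.2 ± 19.8 (0.65, SE 0.52). Il1a was highest in control library 2, at 277 CPM, the library with the highest Ptgs2. It was lowest in preeclampsia library 3, at 23.7 CPM, the preeclampsia library with the highest Ptgs2. These libraries were picked after the values were seen, and a link between Il1a and Ptgs2 was not tested.

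The genes whose library pattern was most like that of Ptgs2 were found among 10678 genes with a symbol and a mean FPKM of at least 1, by the root mean square difference of log2 CPM centred on each gene's mean over the 6 libraries. The 5 nearest were Lysmd2 (0.23), Ier3 (0.23), Trnl2 (0.24), Cd28 (0.25) and Plk2 (0.26), against a median of 0.63. Ier3, an immediate early gene, stood at 185, 265 and 191 CPM in controls and at 83.5, 93.2 and 112 CPM in preeclampsia libraries 1 to 3. Plk2, a polo-like kinase gene, stood at 202, 292 and 156 CPM and at 74.0, 99.0 and 124 CPM. As in Ptgs2, control library 2 was the highest and preeclampsia library 1 the lowest in both. Unlike in Ptgs2, their groups did not overlap, with the preeclampsia group lower, as in 8.30% of all genes. Both were picked for their likeness to Ptgs2, so that share is given for scale only. In Lysmd2, Trnl2 and Cd28 the groups overlapped. Lysmd2, the nearest, stood at 8.71, 15.6 and 15.3 CPM in controls and at 6.77, 6.38 and 9.75 CPM in the preeclampsia group, with preeclampsia library 2 the lowest.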

How the data were processed

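Per the labels' protocols, RNA was enriched on oligo(dT) beads and copied with random primers, with unique molecular identifiers in the adapters. Tools named by the submitters' processing notes were HISAT2 2.2.1, StringTie 2.1.6, cutadapt 1.9 and FastQC. No source used here names the genome build. For every gene the authors deposited whole-number counts and FPKM for each library, and starts, ends and strands are those of that table. Chromosome names were taken from RefSeq by gene identifier.

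After filterByExpr and TMM scaling, counts went into the quasi-likelihood test of edgeR 4.0.16 (R 4.3.3), the group being the only term, with Benjamini-Hochberg adjustment over 15776 genes. The SE is the log2 fold change divided by the root of the F statistic. The biological coefficient of variation was 0.418. Log2 CPM used a prior count of 2. Alternatives were DESeq2 1.42.0, limma 3.58.1 on log2(FPKM + pseudocount of 1 or 0.1) (mean FPKM of 1 or more), and those given below. Scripts were tested on simulated data. No libraries were duplicates (smallest chi-square per degree of freedom 130.1).

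The genes and lists were chosen with earlier results of these data known. Named are all 10 genes; of the wider pathway list the 6 with the highest mean FPKM and those with separated groups; of the regulator and cyclic AMP lists the 4, and of the leukotriene list the 2, with the highest mean FPKM; and the 5 genes most like Ptgs2. Marker lists are given by their sums.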

Additional observations from a re-analysis of the deposited data

How the results depend on the processing

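None of the 10 genes was called under any of the 13 alternatives (limma tested 8 of them). Over all genes edgeR called 0, with 1450 at an unadjusted p under 0.05. The alternatives that called genes were DESeq2 with 350, the fits leaving out 1 library with 0 to 2 (1 without control library 3 and 2 without preeclampsia library 1), and the fit without control library 3 and preeclampsia library 1 together, added after seeing the data, with 43. In that last fit Ptgs1 was at -1.13 (adjusted p = 0.141 in edgeR) and Ptgir at 1.62 (adjusted p = 0.192). The cause was not tested.

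Ptgs1, Ptgs2, Ptgis, Hpgd and Ptger2 kept their sign in every alternative run. With 1 library left out, the log2 fold change ran from -0.20 to 0.96 for Ptges, from -0.12 to 0.19 for Ptger1, from -0.27 to 0.13 for Ptger4, from -0.32 to 0.47 for Ptgfr and from -0.03 to 1.58 for Ptgir, and the Ptgs2 share of cyclooxygenase FPKM differed by -6.14 to 7.51 percentage points. Ptger1 also turned sign with DESeq2 (0.00) and in the added fit (0.31). The log2 ratios of counts were also added after seeing the data.

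Whether same-numbered libraries are pairs is not settled by these values, which were all near 0. The deviations of same-numbered libraries correlated at 0.048, 0.041 and 0.010, and those of the other pairs at -0.080 to 0.035. Control library 3 correlated better with preeclampsia library 2 (0.035) than with its own number. With the replicate block edgeR called 0 genes and 0 of the 10. At an unadjusted p under 0.05 were 2 of the 10 (1 without the block), beside 1196 of all 15776 genes (1450 without it). The log2 fold change moved from 0.40 to 0.88 for Ptgir, from 0.13 to 0.33 for Ptges and from 0.04 to 0.16 for Ptgfr, and was -0.86 for Ptgs2 and -0.79 for Ptgs1.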

Other observations

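The leukotriene branch uses the same arachidonic acid. Of a list of 11 leukotriene, lipoxygenase and epoxide hydrolase genes, 10 were in the table and 6 were tested. None was called by edgeR (smallest adjusted p = 0.596) or DESeq2. Apart from Lta4h, no gene of the list exceeded 3.53 CPM in any library. Lta4h, a broadly expressed hydrolase, stood at 54.5, 56.1 and 66.4 CPM in controls and at 54.5, 52.6 and 49.2 CPM in preeclampsia libraries (log2 fold change -0.18, SE 0.12). Ephx2, a soluble epoxide hydrolase, was at 1.46 ± 0.741 and 1.60 ± 0.984 CPM (SD, n = 3 each). Alox5, the lipoxygenase that starts leukotriene synthesis, had from 8 to 27 counts per library and was not tested; it was named after its values were seen. Its partner Alox5ap, also named after its values were seen, stood at 0.733, 0.625 and 0.562 CPM in controls and at 0.579, 3.53 and 1.24 CPM in preeclampsia libraries (1.48, SE 0.69, adjusted p = 0.596 in edgeR).

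Of 14 genes known to respond to cyclic AMP, the second messenger of the Ptger2, Ptger4 and Ptgir receptors, none was called by edgeR or DESeq2, with a median log2 fold change of 0.12. Groups separated in 1 of them, Nr4a2, at 30.8, 36.1 and 28.1 CPM in controls and 38.3, 42.5 and 49.6 CPM in preeclampsia libraries 1 to 3 (0.46, SE 0.16, adjusted p = 0.473 in edgeR), against 7.25% of all genes higher without overlap; it was named after its values were seen. The 4 with the highest mean FPKM had log2 fold changes of 0.05 (SE 0.21) for Pde4b, 0.34 (SE 0.26) for Pde4d, 0.01 (SE 0.21) for Per1 and -0.35 (SE 0.25) for Nr4a1.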
